A study of Oryza sativa with 5 samples.

Results

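The hybrid rice SY63 (Shanyou 63) was compared with MH63 (Minghui 63), its male, restorer parent, gene by gene in libraries of short sequence tags. All genes with a tag in either library were taken, which gave 20948 genes of the 22546 with a tag in any of the 5 libraries of the series. SY63 is the cross of the female parent ZS97 (Zhenshan 97) with MH63, and all 3 are indica rice. As context, values are also given for ZS97 and for 2 hybrids between ZS97 and MH63 lines carrying a transgene for the histone deacetylase gene OsHDT1, an over-expression construct in FU and an RNAi construct in FR. Both transgenes came in through the MH63 side. The seedlings were 15 days old and were grown on MS medium with 15 h of light at 30 °C and 9 h of darkness at 25 °C. There was 1 library per genotype, so every difference below is a difference between 2 libraries with no replicate check.

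Light-harvesting chlorophyll a/b-binding proteins carry the pigments that feed absorbed light to the photosystems, and the Calvin cycle enzymes use the captured energy to fix CO2. Core histones are made mainly while DNA is copied, and kinesins, tubulins and B-type cyclin-dependent kinases serve the mitotic spindle and the passage through mitosis. Rice leaves answer pathogens with pathogenesis-related proteins such as chitinases and thaumatins, with WRKY transcription factors and with diterpenoid and phenolic phytoalexins. Diterpenoid phytoalexins are built by cyclases of the kaurene synthase family and oxidised by cytochromes P450, and in rice some of these genes lie side by side on a chromosome. F1 hybrids such as SY63 are grown because they outgrow their parents.

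A tag is the short piece next to the last CATG site of a transcript, so that 1 transcript gives at most 1 tag and levels need no correction for length. The SY63 library held 4857063 clean tags and the MH63 library 5022081, of which 69.9% and 73.9% lay on genes. Levels are given as TPM, here tags scaled to the library's clean tags and not to length. A count of 0 allows up to 3 tags, or 0.618 TPM in SY63 and 0.597 TPM in MH63, and these limits and all intervals cover counting error only. A gene was called where the Audic-Claverie exact test of its 2 counts gave a false discovery rate of at most 0.001 and the log2 ratio was at least 1 in size. By this rule 1487 genes were higher in SY63 than in MH63, a background of 7.1% of the genes tested, and 1962 were lower, a background of 9.37%. The study itself, with the same thresholds, reported more genes up than down in SY63 against MH63, the opposite split. Why the 2 counts differ was not tested. Among the 15772 genes with at least 20 tags summed over both libraries the median log2 ratio was -0.17, and 71.1% of them differed by less than a factor of 2. At that depth 8.88% were called higher and 12.2% lower. Of the 5176 genes with fewer summed tags only 129 were called, so a group's share called also depends on its depth. Scaling by the tags on genes moved the log2 ratios of genes with tags in both libraries up by 0.08 and gave 1668 higher and 1671 lower genes. Scaling by TMM factors moved them up by 0.15 and gave 1876 higher and 1444 lower genes, so that the split between directions turned round. Such scaling adds about the same amount to every log2 ratio. It therefore cannot change how far the median of a gene group lies from the median of all genes. In whole seedlings fewer cells of a type and less RNA per cell cannot be told apart.

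**Figure D1:**
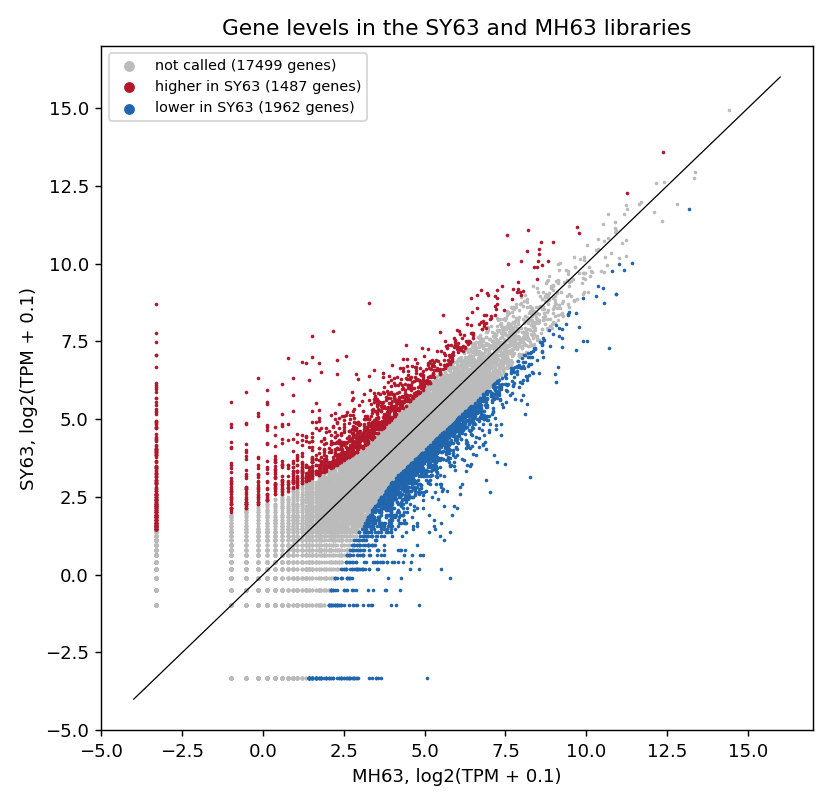
Level of each of the 20948 genes in SY63 (vertical axis) and MH63 (horizontal axis), as log2(TPM + 0.1), with the line of equal levels. The 1487 genes called higher in SY63 are red and the 1962 called lower are blue, and the separate column at the left and row at the bottom hold genes with 0 tags in MH63 and in SY63.

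The level of genes that only 1 parent showed differed by parent. In 94 genes with at least 50 tags in MH63 and at most 3 in ZS97, the SY63 level was a median 18.1% of that of MH63 (quartiles 8.49% and 29.2%), and 7 of the 94 reached 50% of it. FU stood at a median 32.5% and FR at 30.0% of MH63 for the same genes. In 91 genes with 50 or more tags in ZS97 against at most 3 in MH63, the SY63 level was a median 65.8% of that of ZS97, with FU at 46.3% and FR at 47.6%. Each list was chosen for high counts in the parent library against which its percentages are taken, and this choice by itself can lower them. The cause of the difference between the lists was not tested.

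Both libraries carried the transcripts of green seedlings. The most abundant small subunit gene of ribulose bisphosphate carboxylase, LOC_Os12g19381, had 31516 TPM in SY63 and 21799 TPM in MH63. The 2 seed storage genes summed to 43.6 TPM in SY63 and 50.8 TPM in MH63. Of 28 pollen allergen and pollen-specific genes none were called higher and 3 were called lower. OsHDT1 (LOC_Os05g51830, described as the zinc finger gene ZOS5-12), a plant-specific histone deacetylase of the HD2 class, had 88.1 TPM in SY63 and 524 TPM in MH63, against 61.3 TPM in ZS97, 1574 TPM in FU and 28.3 TPM in FR. It was called lower in SY63, by 2.57 on the log2 scale, and the order of SY63, FU and FR follows their labels. The study itself reported no clear OsHDT1 difference of SY63 from MH63, by qRT-PCR for RNA and by Western blot of leaves for protein. The value here rests on 1 library per side.

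Genes of light harvesting were higher in SY63 than in MH63. Of the 17 chlorophyll a/b-binding genes 10 were called higher, or 58.8%, and none were called lower. Their median log2 ratio was 1.73, against -0.17 over all genes, and their summed level was 14174 TPM in SY63 and 5004 TPM in MH63. This was the highest share called higher among all descriptions shared by at least 10 genes with 20 or more tags. With a between-sample coefficient of variation of 0.2 assumed, 7 of the 10 stayed called.

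Where both libraries had 20 tags or more, LOC_Os11g13890 had the largest ratio, at 2152 TPM in SY63 and 291 TPM in MH63. This is 7.41-fold, with a 95% counting interval of 2.81 to 2.97 on the log2 scale. ZS97 had 2084 TPM, FU 1547 TPM and FR 1515 TPM of it, so that MH63 alone was low. LOC_Os08g33820 had 2297 TPM in SY63 and 846 TPM in MH63, LOC_Os07g37240 had 1667 TPM and 502 TPM, and LOC_Os01g41710 had 1345 TPM and 285 TPM. In each of these ZS97, FU and FR also lay above MH63. LOC_Os04g38410, chosen after its values were seen, was nearly missing from MH63, with 14 tags there against 981 in SY63 and 1739 in ZS97. LOC_Os07g37550, also picked after its values were known, had 129 tags in SY63 and 2 in MH63, which gives a log2 ratio between 4.18 and 9.12.

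The family was not moved as a block. The most abundant member, LOC_Os07g38960, had 2468 TPM in SY63 and 1459 TPM in MH63, a log2 ratio of 0.76 that missed the threshold. LOC_Os01g64960 had 344 TPM in SY63 and 502 TPM in MH63, and LOC_Os09g12540 had 19.1 TPM in SY63 and 23.5 TPM in MH63. These 3 members, none of them called, were chosen after their values were seen. SY63 lay above both parents in 6 of the 17 genes (35.3%) and below both in 2 (11.8%), against 26.2% and 31.2% of all genes with at least 20 tags. All 3 hybrids lay above both parents in none of the 17 and below both in 2, against 12.7% and 13.7% of all genes.

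The photosystem subunits and oxygen-evolving proteins showed less. Of 22 genes 4 were called higher (18.2%) and 3 lower (13.6%). Their median log2 ratio was 0.48, and 14 of the 22 had a ratio above 0. LOC_Os07g36080, an oxygen-evolving enhancer protein 3 gene that serves water splitting, had 4941 TPM in SY63 and 2438 TPM in MH63. LOC_Os08g44680, for subunit II of the photosystem I reaction center, had 2041 TPM in SY63 and 885 TPM in MH63. LOC_Os07g05360, for the 10 kDa polypeptide of photosystem II, ran the other way, with 525 TPM in SY63 and 1924 TPM in MH63. Under TMM scaling the group had 5 higher and 3 lower genes, and with an assumed coefficient of variation of 0.2 it had none higher and 3 lower.

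The enzymes of carbon fixation as a group stayed near the rest of the genes. Of 37 Calvin cycle genes 4 were called higher (10.8%) and 1 lower (2.7%). Their median log2 ratio of -0.02 turned to 0.13 under TMM scaling. Chloroplast transketolase (LOC_Os06g04270), which rearranges sugar phosphates in the cycle, had 1078 TPM in SY63 and 362 TPM in MH63. A minor small subunit gene, LOC_Os02g05830, had 261 tags in SY63 and 55 in MH63. Outside the list, chloroplast triosephosphate isomerase (LOC_Os09g36450) had 1646 TPM in SY63 and 386 TPM in MH63. Chloroplast carbonic anhydrase (LOC_Os01g45274), which interconverts CO2 and bicarbonate, had 12199 TPM in SY63 and 5256 TPM in MH63, the largest difference in TPM of any gene called higher. Another transketolase of the list, LOC_Os07g09190, chosen after its values were seen, fell to 12 tags in SY63, against 274 in MH63 and 6 in ZS97. Of 16 genes of chlorophyll and heme synthesis 3 were called higher and none lower, among them coproporphyrinogen III oxidase (LOC_Os04g52130), at 160.2 TPM in SY63 and 66.9 TPM in MH63, and the magnesium chelatase subunit chlI (LOC_Os03g36540), at 245 TPM and 118 TPM.

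**Figure D2:**
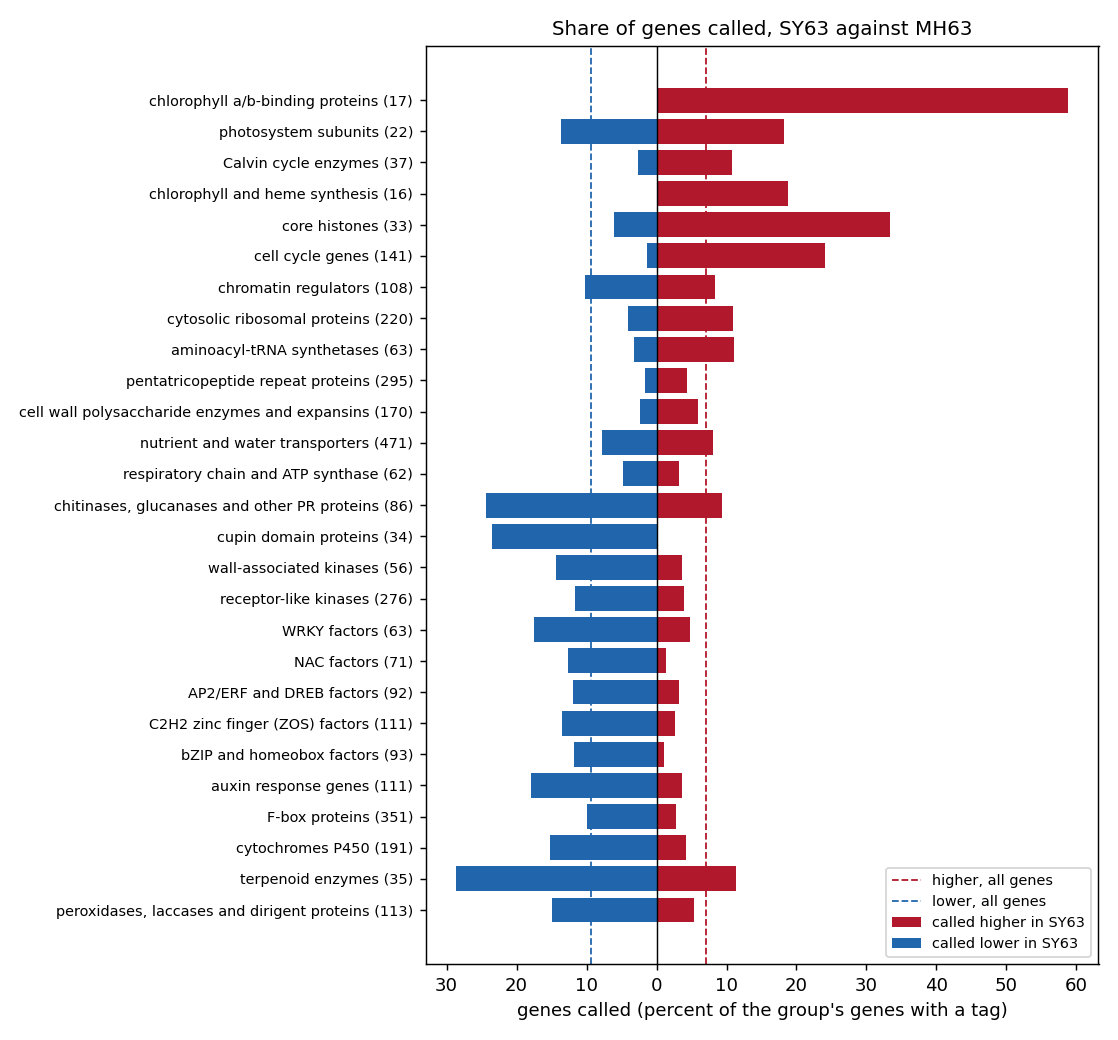
Share of genes called higher (red, to the right) and lower (blue, to the left) in SY63 than in MH63 in 27 gene groups, with the number of genes with a tag in parentheses and dashed lines at the shares over all genes, 7.1% and 9.37%. Chlorophyll a/b-binding genes reach 58.8% higher and histones 33.3% higher, and terpenoid enzymes reach 28.6% lower.

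Genes of DNA packing and cell division formed the second set that was higher in SY63. Of the 33 histone genes, core histones with histone H1, 11 were called higher (33.3%) and 2 lower, with a median log2 ratio of 0.72. The summed histone level nevertheless was 3269 TPM in SY63 and 4489 TPM in MH63. Without the gene of largest difference the sums were 2265 TPM in SY63 and 2888 TPM in MH63. The histone H3 gene LOC_Os06g06510 had 87.3 TPM in SY63 and 4.78 TPM in MH63, or 18.3-fold, with 36.3 TPM in FU and 30.7 TPM in FR against 3.43 TPM in ZS97. The core histone gene LOC_Os05g02300, picked after its values were known, had 149 tags in SY63 and 0 in MH63, which is at least 51.4-fold against a floor of 3 tags. Another, LOC_Os08g38300, likewise chosen later, had 105 TPM in SY63 and 37.0 TPM in MH63. The 2 members called lower were histone H3 genes, LOC_Os03g27310, at 473 TPM in SY63 and 958 TPM in MH63, and LOC_Os04g37780, described as H3.3a, the variant laid down outside DNA replication, at 90.2 TPM and 371 TPM. The call of LOC_Os03g27310 was lost under TMM scaling, at a log2 ratio of -0.87. The H3.3a gene was low in ZS97, at 6.46 TPM.

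Of 141 cell cycle genes 34 were called higher and 2 lower, or 24.1% and 1.42% against 7.1% and 9.37% of all genes, with a median log2 ratio of 0.41. Among them the kinesins, motor proteins that move along microtubules, stood out after their values were seen. Of 44 genes described as kinesins 17 were called higher and none lower, and the 36 with at least 20 tags had a median log2 ratio of 1.39. LOC_Os03g02290 had 90 tags in SY63 and 5 in MH63, with 8 in ZS97, 37 in FU and 38 in FR. LOC_Os08g44420 had 61 tags in SY63 and 7 in MH63, with 9 in ZS97 and 53 in both FU and FR. LOC_Os01g43580, the most abundant of those called, had 374 tags in SY63 and 142 in MH63. These 3 kinesin genes were chosen after their values were seen.

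The same direction was seen in other parts of the division machinery, again chosen after the values were seen. Over all genes 7.1% were called higher and 9.37% lower. Of 16 tubulin genes, which form the microtubules, 6 were called higher and none lower, with LOC_Os02g07060 at 481 tags in SY63 and 94 in MH63. Of 28 genes of the replication machinery 5 were called higher and none lower. MCM2 (LOC_Os11g29380), a subunit of the helicase that opens DNA for copying, had 59 tags in SY63 and 6 in MH63. PCNA (LOC_Os02g56130), the clamp that holds the polymerase on DNA, had 111 tags in SY63 and 48 in MH63. The cyclin-dependent kinase gene B2-1 (LOC_Os08g40170) had 62 tags in SY63 and 10 in MH63. Of 40 cyclins 8 were called higher and 1 lower, with LOC_Os07g12780 at 30.3 TPM in SY63 and 6.97 TPM in MH63, and LOC_Os09g32680 at 44.1 TPM and 116 TPM. A gene described as a cell division inhibitor, LOC_Os02g58790, was also higher, at 226 TPM in SY63 and 67.3 TPM in MH63.

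Many of these genes were higher in the hybrids than in both parents. All 3 hybrids exceeded both parents in 22 of the 36 kinesins with at least 20 tags (61.1%), in 12 of 28 histones (42.9%) and in 44 of 111 cell cycle genes (39.6%). Over all 15772 genes of that depth the share was 12.7%. The hybrids share both parental libraries in this count, so that it describes 5 libraries and is no test. These groups were also singled out for being higher in SY63 than in MH63. That is part of what is counted here and by itself raises their shares. With a coefficient of variation of 0.2 assumed, 13 of the 34 cell cycle genes and 6 of the 11 histone genes stayed called higher.

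**Figure D3:**
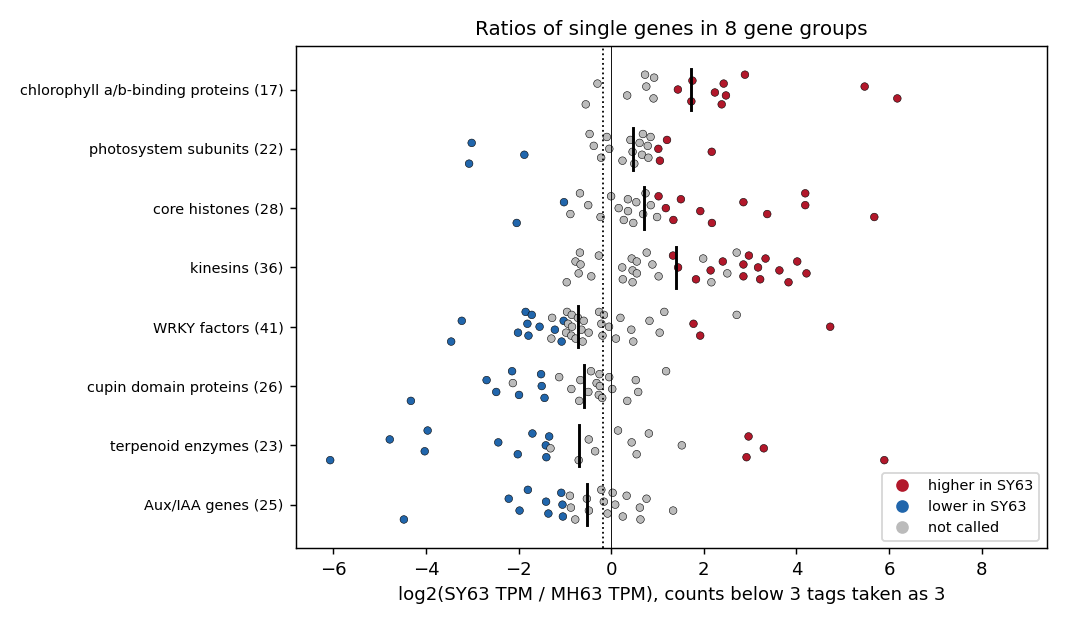
Log2 ratio of SY63 to MH63 TPM for each gene with at least 20 summed tags in 8 gene groups (number of genes in parentheses), with counts below 3 taken as 3 tags. Black bars are group medians and the dotted line is the median of all genes, -0.17; the medians of chlorophyll a/b-binding genes (1.73) and kinesins (1.39) lie to its right and that of the WRKY factors (-0.72) to its left.

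The machinery of protein synthesis moved little. Of 220 cytosolic ribosomal protein genes 24 were called higher (10.9%) and 9 lower (4.09%), and their summed level was 23012 TPM in SY63 and 22593 TPM in MH63. Of the 204 with at least 20 tags 97 had a ratio above 0 and 107 below, and with a coefficient of variation of 0.2 assumed 2 stayed called higher and none lower. Of 73 translation factor genes 4 were higher (5.48%) and 6 lower (8.22%), both under the background. Where both libraries had 20 tags or more, L15 (LOC_Os03g40180) had the largest ratio among the higher members, at 32.5 TPM in SY63 and 4.98 TPM in MH63, and L7Ae (LOC_Os07g05580) had the largest rise in level, at 464 TPM and 207 TPM. L13 (LOC_Os03g37970) had 238 TPM in SY63 and 609 TPM in MH63. Members of such families share sequence, and tags that match several genes were removed, so single paralogs are uncertain. Of 63 aminoacyl-tRNA synthetase genes 7 were called higher and 2 lower, and of 295 pentatricopeptide repeat genes, which process organelle RNA, 13 were called higher and 5 lower. The share called higher was 11.1% in the synthetases and 4.41% in the repeat genes, on either side of the background of 7.1%, and the shares called lower, 3.17% and 1.69%, were under the background of 9.37%.

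Cell wall polysaccharide enzymes and expansins had 10 of 170 genes higher (5.88%) and 4 lower (2.35%), both under the shares of all genes, 7.1% and 9.37%. The 471 nutrient and water transporters were split, with 38 higher (8.07%) and 37 lower (7.86%), near the background. Within them the aquaporins, which pass water through membranes, had 5 of 22 genes higher and 1 lower. LOC_Os04g47220 had 1089.8 TPM in SY63 and 255 TPM in MH63, and LOC_Os09g36930, picked after its values were known, had 564 TPM and 151 TPM. Of 21 potassium transporters 2 were higher and 6 lower, with LOC_Os07g47350 at 16.7 TPM in SY63 and 85.4 TPM in MH63. The respiratory chain and ATP synthase genes, 62 in all, had 2 higher (3.23%) and 3 lower (4.84%). The 25 organellar-type ribosomal protein genes had 1 higher (4.0%) and 2 lower (8.0%).

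Genes of defence were lower in SY63 more often than higher. Of 86 genes for chitinases, glucanases and other pathogenesis-related proteins 21 were called lower (24.4%) and 8 higher (9.3%), and their summed level was 1109 TPM in SY63 and 1566 TPM in MH63. Without LOC_Os07g03730, described next, the sums were 1100.1 TPM in SY63 and 1257 TPM in MH63. The median log2 ratio was -0.24, close to that of all genes, while the share called lower was above the background of 9.37%. The SCP-like gene LOC_Os07g03730, of the family of secreted proteins that holds the pathogenesis marker PR-1, had 42 tags in SY63 and 1550 in MH63, or 35.7-fold. ZS97 had 0 tags of it, FU had 478 and FR had 32. Chitinase CHIT16 (LOC_Os03g04060), which cuts fungal cell walls, had 36 tags in SY63 and 356 in MH63. A Bet v I type gene, LOC_Os05g39580, had 10 tags in SY63 and 244 in MH63, while another of that type, LOC_Os04g39150, had 941 in SY63 and 449 in MH63. CHIT16 and LOC_Os05g39580 were chosen after their values were seen. With an assumed coefficient of variation of 0.2, 11 of the 21 stayed called lower and 3 of the 8 higher.

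Of 34 genes with a cupin domain, the fold of germin-like cell wall proteins, 8 were called lower (23.5%) and none higher. LOC_Os01g14670 had 111 TPM in SY63 and 299 TPM in MH63. Of 56 wall-associated kinases 8 were lower (14.3%) and 2 higher, and of 276 other receptor-like kinases 32 were lower (11.6%) and 11 higher. Of these 276 genes 164 had at least 20 tags, with a median log2 ratio of -0.39. OsWAK32 (LOC_Os04g24220) had 91 tags in SY63 and 255 in MH63, whereas OsWAK112d (LOC_Os10g10130), picked after its values were known, had 128 tags in SY63 and 0 in MH63. A receptor kinase gene described after BAK1, the co-receptor of brassinosteroid and immune receptors in Arabidopsis (LOC_Os11g31540), had 6.18 TPM in SY63 and 129 TPM in MH63, or 20.9-fold. The NB-ARC and NBS-LRR genes, 195 in all, had 10 lower (5.13%) and 5 higher (2.56%), with LOC_Os08g42700 at 66 tags in SY63 and 306 in MH63. Only 74 of the 195 had at least 20 tags, so these shares cannot be set directly beside the background of 9.37% and 7.1%.

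Not every defence gene was lower. The jacalin-like lectin gene LOC_Os12g14440 had 425 TPM in SY63 and 9.56 TPM in MH63, or 44.4-fold, and it also stood above ZS97, at 15.3 TPM. FU had 1573 TPM of it and FR 326 TPM. Chloroplast lipoxygenase 2.1 (LOC_Os12g37260), of the enzyme class that opens jasmonate synthesis, had 58.3 TPM in SY63 and 6.57 TPM in MH63, and 475 TPM in FU. Of 24 lipoxygenase and jasmonate genes 4 were higher (16.7%) and 5 lower (20.8%). Of 17 protease inhibitors 5 were higher (29.4%) and 3 lower (17.6%). Over all genes the shares were 7.1% and 9.37%.

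Terpenoid enzymes had the largest share of lower genes among the groups, 10 of 35 (28.6%), against 4 higher (11.4%). Both shares were above those of all genes, 9.37% lower and 7.1% higher. The median log2 ratio of the group was -0.70. With a coefficient of variation of 0.2 assumed, 4 genes stayed called lower and 4 higher, so the excess of lower genes was lost. Cycloartenol synthase LOC_Os11g35710, of the entry step to sterols, had 49.8 TPM in SY63 and 162 TPM in MH63. Cycloartenol-C-24-methyltransferase (LOC_Os07g10600), which acts later in sterol synthesis, had 167 TPM in SY63 and 21.3 TPM in MH63. The terpene synthase LOC_Os04g52210, picked after its values were known, had 173 tags in SY63 and 0 in MH63, or at least 59.6-fold against 3 tags. Of 191 cytochromes P450 29 were lower (15.2%) and 8 higher (4.19%), with a median log2 ratio of -0.51.

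Several of the lower terpenoid and P450 genes were neighbours on the chromosome. The following runs were picked after their values were seen and are described by all their genes with a tag, in the order of the locus numbers. On chromosome 4, from LOC_Os04g09900 to LOC_Os04g10160, 6 genes described as ent-kaurene synthase, cytochrome P450 or tasselseed-2, a dehydrogenase name from maize, summed to 14 tags in SY63 and 559 in MH63, with 7 in ZS97. All 4 of them that had at least 20 tags were called lower. The ent-kaurene synthase LOC_Os04g09900 had 4 tags in SY63 and 277 in MH63, LOC_Os04g10010 had 2 and 86, and the P450 LOC_Os04g10160 had 6 and 119. On chromosome 2, from LOC_Os02g36030 to LOC_Os02g36280, 5 of 10 genes were called lower and none higher. There the ent-kaurene synthase LOC_Os02g36210 had 18 tags in SY63 and 290 in MH63, and the P450 LOC_Os02g36190 had 13 and 200, both with 0 in ZS97. The terpene synthase LOC_Os02g36140 in the same run had 812 tags in SY63 and 1067 in MH63 and was not called, so the run did not move as a whole.

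Other runs of like genes also held several genes that were lower in SY63. The 6 SCP-like genes from LOC_Os07g03319 to LOC_Os07g03730 on chromosome 7 summed to 59 tags in SY63, 1680 in MH63, 8 in ZS97, 562 in FU and 43 in FR. Of the MH63 tags 1550 were those of LOC_Os07g03730, and 3 of the 6 genes were called lower. The 8 cupin genes from LOC_Os08g08970 to LOC_Os08g09060 on chromosome 8 summed to 140 tags in SY63 and 536 in MH63, and the last of them had 7 tags in SY63, 145 in MH63 and 0 in ZS97. Of these 8 genes 4 were called lower and the rest were not called. In a run of 5 thaumatin genes on chromosome 12, LOC_Os12g43380 had 165 tags in SY63 and 4 in MH63 while the 4 that follow it, up to LOC_Os12g43490, were all called lower.

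**Figure D4:**
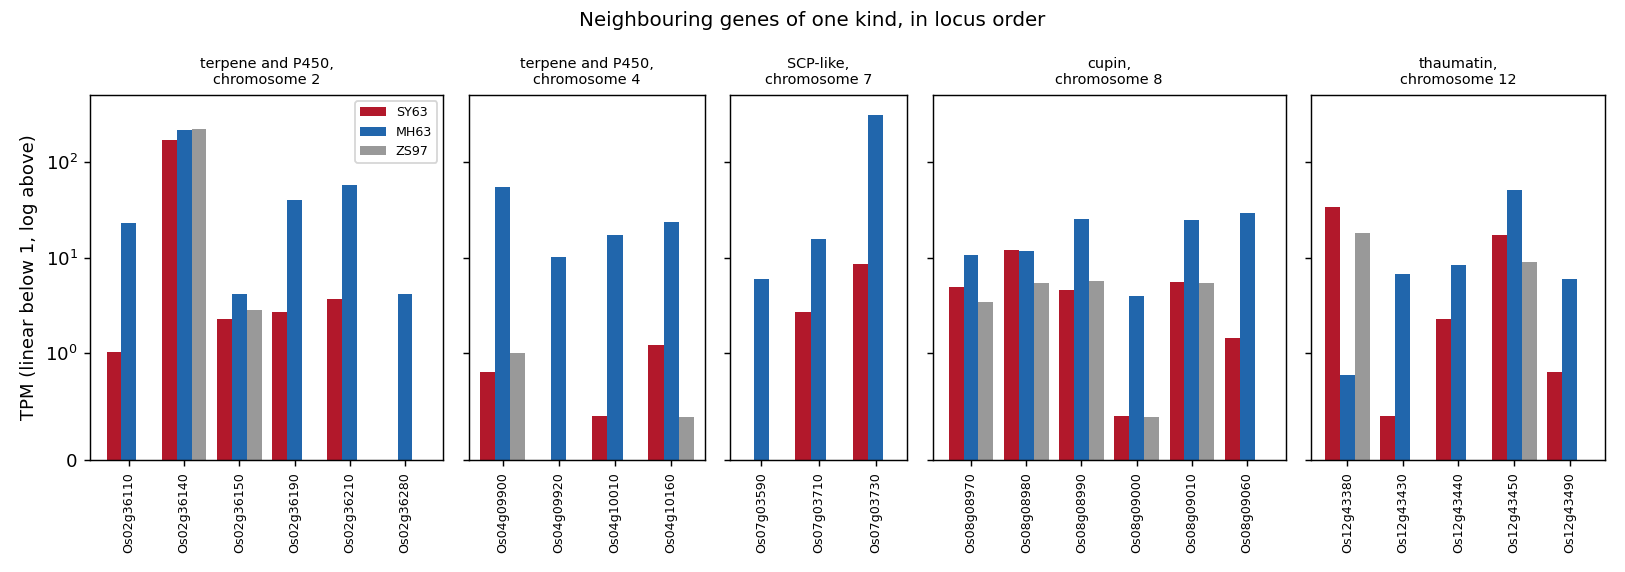
TPM of neighbouring genes with at least 20 summed tags in SY63 (red), MH63 (blue) and ZS97 (grey), in 5 runs of like genes in locus order; the vertical axis is linear below 1 and logarithmic above. MH63 is the highest bar in all genes called lower, many of which are at or near 0 in ZS97, whereas SY63 is the highest for thaumatin LOC_Os12g43380, at 165 tags against 4 in MH63.

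Phenolic metabolism gave a mixed picture. Of 100 phenylpropanoid and flavonoid genes 10 were called higher and 12 lower, but the summed level was 2126 TPM in SY63 and 3665 TPM in MH63. Phenylalanine ammonia-lyase LOC_Os02g41630, the entry enzyme of the pathway, had 495 TPM in SY63 and 1250.3 TPM in MH63, and without it the sums were 1632 TPM and 2414 TPM. Dihydroflavonol-4-reductase LOC_Os03g08624, of the anthocyanin branch, had 8.24 TPM in SY63 and 119.9 TPM in MH63, or 14.6-fold. The isoflavone reductase homolog LOC_Os01g13610 had 0 tags in SY63 and 170 in MH63, at least 54.8-fold against 3 tags, with 0 in ZS97, 6 in FU and 7 in FR. Of 113 peroxidases, laccases and dirigent proteins 17 were lower (15.0%) and 6 higher (5.31%). All 6 laccases called were lower, out of 18, for instance LOC_Os05g38420, chosen after its values were seen, with 6 tags in SY63 and 71 in MH63, and peroxidase LOC_Os02g14440 was higher, at 545 TPM and 231 TPM.

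Most families of transcription factors had more genes lower than higher in SY63, as did all genes, with 9.37% lower and 7.1% higher. Of 63 WRKY genes 11 were lower and 3 higher, of 71 NAC genes 9 and 1, of 92 AP2/ERF and DREB genes 11 and 3, of 93 bZIP and homeobox genes 11 and 1, and of 111 C2H2 zinc finger genes 15 and 3. The share called lower was 17.5% in the WRKY and 13.5% in the C2H2 genes, and 12.7%, 12% and 11.8% in the NAC, AP2/ERF and bZIP with homeobox lists, nearer the background. The WRKY genes had the lowest median of these, -0.72, and 30 of the 41 with at least 20 tags had a ratio below 0. OsWRKY53 (LOC_Os05g27730) had 90.2 TPM in SY63 and 324 TPM in MH63, with 112 TPM in ZS97. OsWRKY71 (LOC_Os02g08440) had 111 tags in SY63 and 335 in MH63, whereas OsWRKY65 (LOC_Os12g02470) had 77 in SY63 and 3 in MH63, a log2 ratio between 3.13 and 7.04. Both were chosen after their values were seen. The 150 MYB genes were split, with 14 higher (9.33%) and 13 lower (8.67%). Of 90 basic helix-loop-helix genes 4 were higher (4.44%) and 6 lower (6.67%), the largest fall being that of LOC_Os01g38610, at 25 tags in SY63 and 153 in MH63. With a coefficient of variation of 0.2 assumed, the WRKY family kept 3 genes lower and 1 higher, and the NAC, AP2/ERF and bZIP with homeobox lists kept 1 lower gene each and none higher.

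The auxin response list had 20 of 111 genes lower and 4 higher. Within it 9 of 27 Aux/IAA genes, repressors that auxin removes, were lower and none were higher, with a median log2 ratio of -0.52. OsIAA3 (LOC_Os01g13030) had 134 TPM in SY63 and 278 TPM in MH63, with 129 TPM in ZS97, 134 TPM in FU and 132 TPM in FR, so that MH63 stood apart from the other 4 libraries. Its call was also lost under TMM scaling, at a log2 ratio of -0.90. OsIAA1 (LOC_Os01g08320) had 24.9 TPM in SY63 and 86.6 TPM in MH63, and OsIAA20 (LOC_Os06g07040) had 3 tags in SY63 and 69 in MH63. The auxin-repressed protein gene LOC_Os09g26620 had 151 TPM in SY63 and 816 TPM in MH63. The last 3 genes were chosen after their values were seen. The auxin response factor LOC_Os02g41800 was higher, at 69 tags in SY63 and 24 in MH63. With a coefficient of variation of 0.2, 1 gene of the list stayed called, and it was lower.

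Other hormone lists had similar numbers of genes in each direction. Of 78 gibberellin genes 10 were higher (12.8%) and 11 lower (14.1%). The ent-kaurene synthases LOC_Os04g09900 and LOC_Os02g36210 above, both called lower, are in this list and also in that of terpenoid enzymes. Gibberellin 2-beta-dioxygenase 1 (LOC_Os05g11810), of an enzyme class that inactivates gibberellin, had 78.2 TPM in SY63 and 19.3 TPM in MH63. Of 31 abscisic acid and dehydration genes 5 were higher (16.1%) and 4 lower (12.9%). The abscisic stress-ripening gene LOC_Os02g33820 had 35.6 TPM in SY63 and 278 TPM in MH63. Calcium sensors and calcium-dependent kinases had 29 of 215 genes lower (13.5%) and 14 higher (6.51%). F-box proteins, which mark targets for degradation, had 35 of 351 lower (9.97%) and 10 higher (2.85%), against 9.37% and 7.1% of all genes. Only 224 of the 351 had at least 20 tags, and 160 of these had a ratio below 0 and 64 above. The median log2 ratio of the 224 was -0.46.

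The list of B-box, CCT, response regulator, clock and photoreceptor genes, from which flowering time regulators come, had 10 of 54 genes lower and 5 higher. These are 18.5% and 9.26%, against 9.37% and 7.1% of all genes. GIGANTEA (LOC_Os01g08700), a clock-linked regulator of flowering, had 414 TPM in SY63 and 539 TPM in MH63, with 620.5 TPM in ZS97, 383 TPM in FU and 495 TPM in FR, and was not called. By qRT-PCR of leaves of older plants under long days, the study reported higher rhythmic GIGANTEA expression in SY63 than in either parent. The B-box gene LOC_Os02g39360 had 49.8 TPM in SY63 and 116 TPM in MH63. The CCT/B-box gene LOC_Os06g16370, picked after its values were known, had 46 tags in SY63 and 5 in MH63, with 50 in ZS97. With a coefficient of variation of 0.2, 2 genes of the list stayed higher and none lower.

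Single genes with large ratios, at 20 or more tags in each of the 2 libraries, came from several other pathways. Thioredoxin LOC_Os08g29110, a redox protein, had 228 TPM in SY63 and 4.38 TPM in MH63, or 51.9-fold, the largest ratio of all higher genes of this depth. The methionine synthase LOC_Os12g42884 had 119.8 TPM in SY63 and 4.78 TPM in MH63, and the chloroplast adenylosuccinate synthetase LOC_Os03g49220, of purine synthesis, had 131 TPM and 5.77 TPM. Starch synthase LOC_Os01g52250 had 94.9 TPM in SY63 and 10.8 TPM in MH63. In ZS97 these 4 genes had 272, 85.9, 196 and 75.4 TPM, all far above MH63. A membrane protein gene, LOC_Os04g33830, was both strongly changed and abundant, at 1932 TPM in SY63 and 185 TPM in MH63.

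On the lower side, inositol oxygenase LOC_Os06g36560, which starts the breakdown of inositol to cell wall sugars, had 11.7 TPM in SY63 and 180.0 TPM in MH63. Malate synthase LOC_Os04g40990, of the glyoxylate cycle that turns stored fat into sugar, had 5.97 TPM in SY63 and 68.5 TPM in MH63. The gene LOC_Os01g15270, of no stated function, had 156 TPM in SY63 and 1681 TPM in MH63. The largest difference in level was that of an RNA recognition motif gene, LOC_Os12g43600, at 3469 TPM in SY63 and 9294 TPM in MH63. ZS97 had 4009 TPM of it, FU 3515 TPM and FR 3073 TPM, near SY63 and far from MH63. The next was LOC_Os12g33120, of no stated function, at 1049 TPM in SY63 and 2732 TPM in MH63. A lactate/malate dehydrogenase, LOC_Os03g56280, had 884 TPM in SY63 and 2313 TPM in MH63, and a ubiquitin-conjugating enzyme, LOC_Os04g57220, had 517 TPM and 1937 TPM. Asparagine synthetase LOC_Os03g18130, which stores nitrogen in asparagine, had 12.4 TPM in SY63 and 60.3 TPM in MH63, and FU was at 66.8 TPM.

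**Figure D5:**
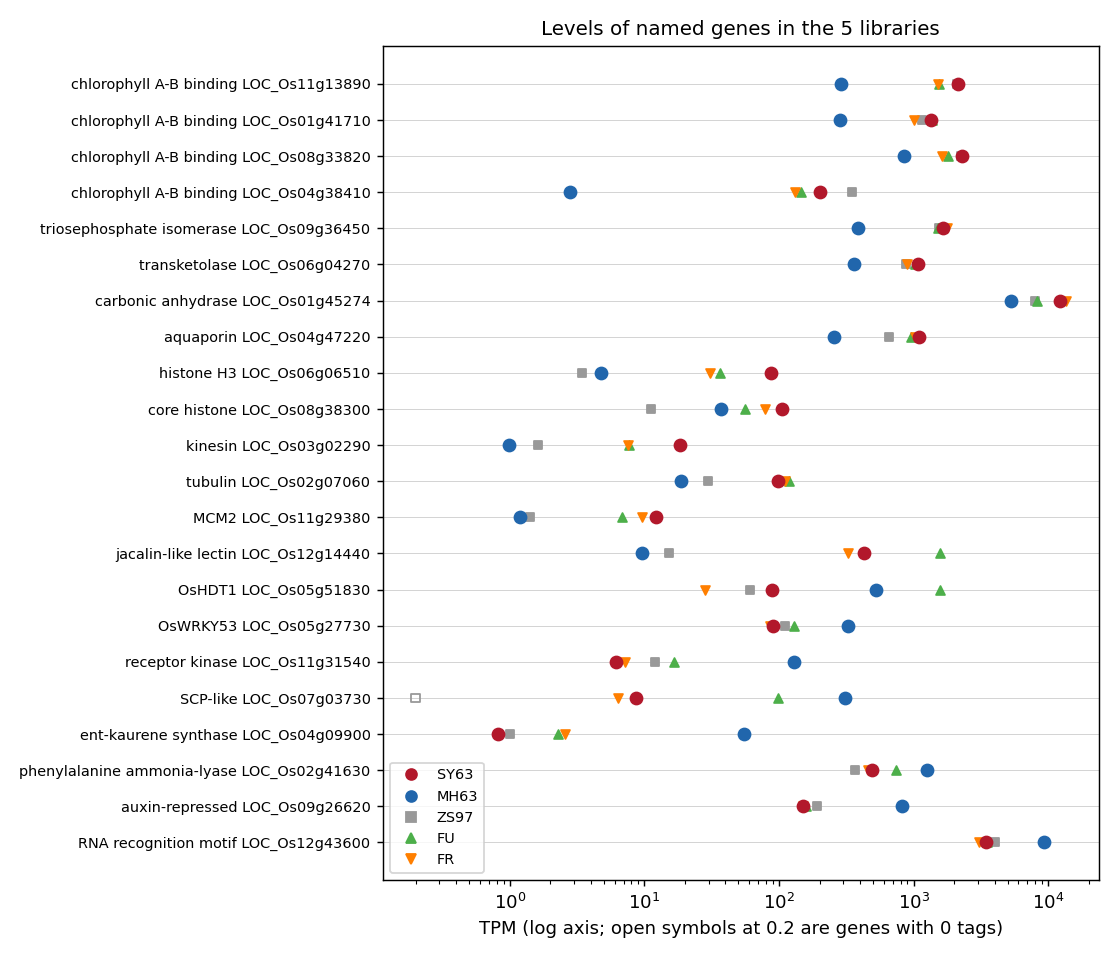
TPM of 22 named genes in SY63 (red), MH63 (blue), ZS97 (grey squares), FU (green, pointing up) and FR (orange, pointing down) on a logarithmic axis, with an open symbol for 0 tags, with genes higher in SY63 than in MH63 above and genes lower below, from OsHDT1 down. For the light-harvesting genes MH63 stands apart from the other 4 libraries, and for histone H3 LOC_Os06g06510, kinesin LOC_Os03g02290 and MCM2 LOC_Os11g29380 the 3 hybrids lie above both parents.

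Some genes had tags in only 1 of the 2 libraries, more often in SY63. Tags were matched to a japonica reference with at most 1 mismatch. A sequence difference at a tag or its CATG site can thus leave 0 tags, whatever the transcript level. Whether this held for these genes was not tested. In 81 genes SY63 had at least 50 tags and MH63 at most 3, of which 63 were at 0 in MH63, and 32 of the 81 had no stated function. ZS97 had at least 50 tags in 68 of the 81 and at most 3 in none. The gene with the most tags was that for metallothionein-like protein 3B (LOC_Os05g11320), a metal-binding protein, with 2002 tags in SY63, 0 in MH63 and 7753 in ZS97, which is at least 690.0-fold over 3 tags. An acyl-CoA dehydrogenase gene (LOC_Os06g23870) had 1051 tags in SY63, 0 in MH63 and 2005 in ZS97. In the other direction 15 genes had at least 50 tags in MH63 and at most 3 in SY63, of which 6 were at 0 in SY63, and 10 of the 15 had at most 3 tags in ZS97.

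Of the 1487 genes higher in SY63 than in MH63, SY63 lay between the parents or level with one in 512 and above both in 975, and in 328 it was at least 2-fold above both. Of the 1962 lower genes it lay between the parents in 772 and below both in 1190, and in 237 it was at least 2-fold below both. Over all 15772 genes with at least 20 tags SY63 lay above both parents in 26.2% and below both in 31.2%. The called genes were chosen for their difference from MH63, which by itself raises the counts beyond both parents. These counts are therefore no test of SY63 against its parents.

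Descriptions shared by at least 10 genes with 20 or more tags, 195 in all, were also ranked by their shares of called genes, which come from the same counts as the lists. After chlorophyll A-B binding protein the highest shares called higher were those of core histone (5 of 12) and kinesin motor (11 of 27) domain proteins. Tubulin/FtsZ domain proteins (5 of 15), leucine-rich repeat family proteins (4 of 12) and Ty3-gypsy retrotransposon proteins (4 of 12) tied next. The same words with capitals and without the hyphen, Leucine Rich Repeat family protein, covered 11 other genes, with 1 higher and 4 lower. The highest shares called lower were those of AMP-binding domain proteins (5 of 11), cupin domain proteins (6 of 14), Ty1-copia retrotransposon proteins (5 of 13) and potassium transporters (6 of 16). Of 16 genes described as AMP-binding enzyme, however, 1 was higher and none were lower. An AMP-binding gene, LOC_Os04g58710, of the class that joins acids to coenzyme A and picked after its values were known, had 70 tags in SY63 and 717 in MH63. The whole list of 373 retrotransposon genes had 24 higher (6.43%) and 19 lower (5.09%), and that of 246 DNA transposon genes 18 higher (7.32%) and 22 lower (8.94%). Only 147 genes of each list had at least 20 tags, so these shares cannot be set directly beside the background.

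Called genes lay on all 12 chromosomes. Among genes with at least 20 tags, 8.88% were higher and 12.2% lower. By chromosome the share higher ran between 7.37% (chromosome 10) and 10% (chromosome 8), and the share lower between 10.7% (chromosomes 2 and 7) and 17.6% (chromosome 11), with chromosome 10 next at 15.0%. In 151 runs of 100 neighbouring genes the number called lay between 10 and 38, with a median of 20. The run with 38 called genes, LOC_Os07g01020 to LOC_Os07g04700 on chromosome 7, had 14 higher and 24 lower and holds the SCP-like genes above, and the run with 10 was LOC_Os02g01010 to LOC_Os02g03220 on chromosome 2.

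A separate list gave tags that every one of the 5 libraries held and that matched the genome sequence, without gene names. It held 7538 tags, which summed to 240071 copies in SY63 and 318443 in MH63, and by the same rule 151 were higher and 361 lower. For each direction the 3 tags of largest ratio, out of those that matched 1 position without mismatch and had at least 100 copies in 1 of the 2 libraries, are printed 5′ to 3′ to show what was counted, with the CATG of the NlaIII site in capitals.
Tag chr2:31394266-31394286, minus strand: CATGcaatgaaaaaaaaaaaa
Tag chr1:42301126-42301146, plus strand: CATGcagattatgtttttgta
Tag chr12:25692201-25692221, plus strand: CATGtctcaaagttgttttgt
Tag chr3:4681501-4681521, minus strand: CATGggcggttagcagcatcc
Tag chr1:24392410-24392430, plus strand: CATGtgagattgtaatttgta
Tag chr1:24392442-24392462, plus strand: CATGaatctctcacgatcatt

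Starts are those of the deposited list, which does not say whether it counts from 0 or 1, on the rice genome sequence the authors used, and each end follows from the tag's length of 21 bases. The first 3 tags were higher, with 485, 120 and 112 copies in SY63 against 8, 2 and 6 in MH63, and 926, 260 and 166 in ZS97. The last 3 were lower, with 6, 6 and 8 copies in SY63 against 195, 139 and 153 in MH63, and 20, 9 and 2 in ZS97. The last 2 lie next to each other on chromosome 1 and moved together, with 15 copies each in FU and 3 and 2 in FR. Whether these positions lie in genes was not looked up, since no annotation of this build was used here.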

How the data were processed

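RNA of 15-day-old seedlings was turned into NlaIII tags and read on an Illumina sequencer, with 1 library for each of SY63, MH63, ZS97, FU and FR. The authors matched clean tags, allowing 1 mismatch, to the transcripts of the MSU rice annotation version 6.1, removed tags matching several genes and summed the rest per gene. The software was not given in the sources used here. The deposited tables hold these tag counts per gene, raw, and the same as TPM, which the authors scaled to the clean tags of the library and wrote as 0.01 where the count was 0. No gene had a count of 1 in any library. The tables' own ratios, p-values and false discovery rates are the authors' comparisons and were not used. A further deposited list holds counts of tags matched to the genome.

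Counts of SY63 and MH63 were compared by the exact 2-sided Audic-Claverie test with the clean-tag totals and Benjamini-Hochberg adjustment over 20948 genes. It compares 2 libraries, not genotypes, so no p-values are given, and with 1 library per genotype the quasi-likelihood fit of edgeR had no residual degrees of freedom. Whether a library pooled several seedlings was not given. The 56 gene groups were found by words in the deposited descriptions, and medians were taken over genes with at least 20 summed tags. Members and lists were chosen with earlier results of these data known, and word patterns that caught wrong descriptions were corrected after the tables were read. Genes were named by rule: the 10 largest ratios and the 10 largest TPM differences in each direction, the leading called genes of each group with 20 tags or more in both libraries, the 5 most abundant genes absent from the other library, OsHDT1 and GIGANTEA. Others are marked as chosen after their values were seen. Intervals are exact 95% intervals of the ratio of 2 counts. Alternatives were other totals or scaling factors, edgeR's exact test with an assumed coefficient of variation of 0.2 or 0.4, a minimum of 20 summed tags, counts below 3 taken as 3, and a log2 ratio of 2. The test was tested on simulated data. Python 3.11.15, numpy 2.4.6, pandas 2.3.3, scipy 1.17.1, matplotlib 3.10.9, R 4.3.3 and edgeR 4.0.16 were used.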

Additional observations from a re-analysis of the deposited data

Results flagged for a closer look

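Genes with 0 tags in both SY63 and MH63 lie outside the comparison, and some of them had more than the 3 tags that a count of 0 allows in another library. There were 130 such genes in ZS97, 274 in FU and 155 in FR. The most abundant were LOC_Os01g74160, described as a carboxyl-terminal peptidase, with 15 tags in ZS97, LOC_Os10g27420, a hypothetical protein, with 33 tags in FU, and LOC_Os03g30740, of no stated function, with 25 tags in FR.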

How the results depend on the processing

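There was 1 library per genotype, so no replicate could be left out, and no value measures the spread between seedlings. No paired analysis was possible because each genotype has 1 library. In place of replicates a coefficient of variation between samples was assumed. At 0.2 edgeR's exact test left 407 higher and 286 lower genes, and at 0.4 it left 80 higher and 6 lower, or 93.0% higher. A log2 ratio of at least 2 left 656 higher and 498 lower genes. Scaling by the tags on genes, TMM factors or DESeq2 size factors moved the log2 ratios of genes with tags in both libraries up by 0.08, 0.15 and 0.15. With these scalings 50%, 56.5% and 56.3% of the called genes were higher, against 43.1% with the clean-tag totals used above. With each of these 3 scalings 97 of the 99 genes named with values kept their side of the threshold, and histone H3 LOC_Os03g27310 and OsIAA3 (LOC_Os01g13030) lost their call. Of the 99 genes 93 were called, and the assumed coefficients of 0.2 and 0.4 ended 30 and 79 of these calls, and the log2 ratio of 2 ended 34. No call changed direction under any alternative run, but none could. The scalings moved log2 ratios by far less than the 1 that a call needs, and the other alternatives kept the direction of each ratio. Of 112 counts of called genes by group, 21 moved by over 1.5 times under TMM factors and 98 under the coefficient of 0.2. At the present depth a gene at 0 tags may have up to 3.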
